A study of Mus musculus with 8 samples.

Results

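The 6 genes described here encode the endothelial Tie receptors and the proteins that act on them: the receptor tyrosine kinases Tie1 and Tek (Tie2), the angiopoietins Angpt1, Angpt2 and Angpt4, and the receptor tyrosine phosphatase Ptprb (VE-PTP). They were taken by gene symbol from an array of 19505 measured genes, and each is read by 1 probe set. RNA came from lung EC of 8 C57BL/6N mice that had been injected under the skin with LLC cells, the Lewis lung carcinoma line, 4 given the TIE1-blocking antibody AB-Tie1-39 and 4 given control IgG. Both groups were dosed intraperitoneally with 40 mg/kg 2 times per week, the mice were 8 weeks old when the tumor cells were injected, and lungs were taken on day 14. EC were sorted as CD31+ CD45- LYVE1- PDPN- Ter119- DAPI-, and each mouse was hybridized to 1 Clariom S mouse array, which gives 1 brightness value per transcript cluster. For 3 mice of the antibody group a label field gives a TIE number other than 1, whereas the titles and the study's methods give Tie1 for all, and the titles were followed. The comparison asks whether the transcripts of the receptor system itself differed in the lung endothelium of mice in which its Tie1 arm was bound by an antibody. Every animal carried a tumor, so no level without a tumor was measured.

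Tie2 is the signaling receptor for the angiopoietins in endothelium. Angpt1, secreted mainly by mural and other perivascular cells, activates it and keeps vessels quiescent, while Angpt2 is made by EC themselves, is stored in Weibel-Palade bodies and, depending on the context, blocks or activates the receptor. Tie1 binds no angiopoietin with high affinity but pairs with Tie2 and alters its signaling, and VE-PTP removes phosphate from Tie2 and from VE-cadherin. In mice Angpt4 is a further ligand of Tie2. These steps act on proteins, and protein amounts, phosphorylation and antibody binding were not measured on the arrays.

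The promoter sequences of the 2 receptors are shown because Tie1 and Tek values were correlated over the arrays, also when the arrays farthest out were left aside. Over the member pairs the exact permutation p of this pair was 0.0335 after adjustment for Spearman rho and 0.0632 for Pearson r. Whether the promoters have a part in this correlation was not tested. The sequences are RefSeq's 250 bases before the start site listed for each promoter on build GRCm38.p6, with Tie1 at chr4:118489850-118490099 on the minus strand and Tek at chr4:94739039-94739288 on the plus strand. The annotated Tek gene begins at position 94739086 of this build, inside the window, so most of the Tek bases shown lie after the start of the gene. The Tie1 window ends where the annotated gene begins. Capitals mark GGAA or its reverse complement TTCC, the core bound by ETS factors, the family to which the endothelial regulators Erg, Fli1, Ets1 and Elf1 belong.
Tie1: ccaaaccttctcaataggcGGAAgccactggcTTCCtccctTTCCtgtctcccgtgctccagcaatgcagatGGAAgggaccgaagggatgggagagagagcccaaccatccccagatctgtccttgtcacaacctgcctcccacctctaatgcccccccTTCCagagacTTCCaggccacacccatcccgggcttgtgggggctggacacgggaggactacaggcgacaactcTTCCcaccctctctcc
Tek: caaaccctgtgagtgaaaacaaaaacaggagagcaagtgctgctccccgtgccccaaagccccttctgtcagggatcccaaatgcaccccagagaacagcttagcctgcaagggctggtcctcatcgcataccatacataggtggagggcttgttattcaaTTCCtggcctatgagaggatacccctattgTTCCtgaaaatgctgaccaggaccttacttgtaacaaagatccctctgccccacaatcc
The Tie1 window holds 7 matches on both strands together, and 3.82% of 32851 promoter windows of the same length hold at least as many. The Tek window holds 2, a number reached by 76.8% of the windows. At least 1 match occurs in 93.4% of the windows, with a median of 3. The longer form AGGAAG, which contains the core, was found 1 time in Tie1 and 0 times in Tek, and in 29.5% of all windows. The GATA factor letters AGATAA, present in 9.99% of windows, are in neither on either strand. The same holds for the forkhead letters GTAAACA, present in 3.17% of windows. The Tie1 window is richer in G and C, at 60.4%, than that of Tek, at 51.2%. RefSeq windows were at hand for 3 of the 6 genes, the other being Angpt4, which has 5 matches of the core.

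The sorted cells carried the endothelial arm of the system, while 2 of the ligands were near the array's background. Levels are log2 of the deposited intensity, and because probe sets differ in brightness for equal amounts of RNA, they are not compared between genes as abundance. Each was set instead against 1091 probe sets of olfactory receptors, genes not thought to be expressed in lung endothelium, which over all 8 arrays had a median of 6.41, a 95th percentile of 7.21 and a maximum of 8.88. Tie1, Tek, Angpt2 and Ptprb were brighter than every one of them. In IgG-treated mice Ptprb lay at percentile 99.4 of all 22202 probe sets tested, Tek at 98.7, Tie1 at 98.0 and Angpt2 at 83.5. Angpt4 lay at percentile 50.7, and 1.83% of the olfactory receptor probe sets were at least as bright. Angpt1 lay at percentile 36.5, with 6.97% at least as bright, so its value is close to what unexpressed genes give and a change in it may be missed. The array's 23 background control probe sets had a median of 6.28 and a 95th percentile of 7.75. Angpt4, at 7.53 over all 8 arrays, and Angpt1, at 7.11, were both below that percentile, so a change in Angpt4 may also be missed.

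**Figure D1:**
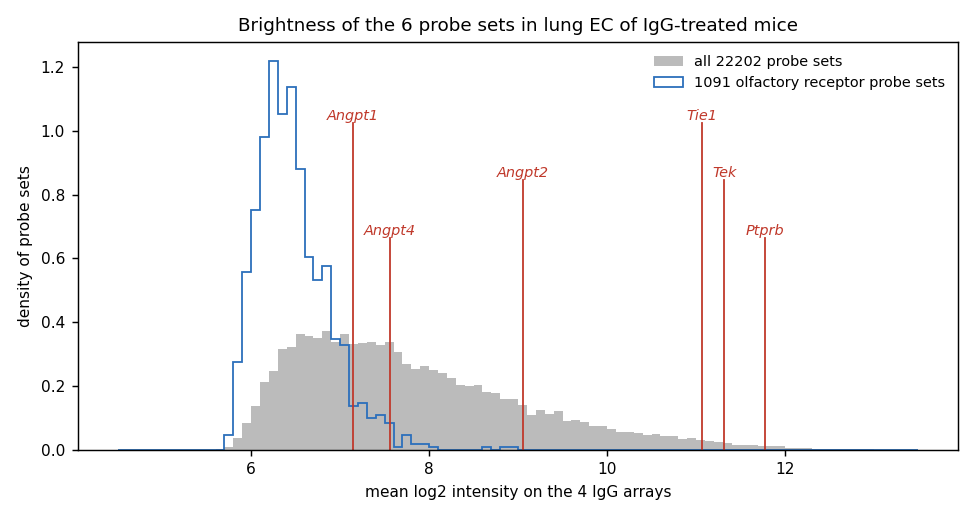
Mean log2 intensity of the 6 genes on the 4 IgG arrays (red vertical lines, whose height has no meaning) over the distributions of all 22202 probe sets (grey) and of 1091 olfactory receptor probe sets (blue outline), the vertical axis being the density of probe sets. Ptprb, Tek, Tie1 and Angpt2 lie to the right of the olfactory receptors, and Angpt1 lies within their upper flank.

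Markers of the labelled cell type were bright. Endothelial markers averaged 11.13 on AB-Tie1-39 arrays and 11.09 on IgG arrays over 11 of 12 genes, with Cdh5 (VE-cadherin) at 12.58 on AB-Tie1-39 arrays and 12.52 on IgG arrays. A protocol text in the labels speaks of liver, whereas the sample source and the study's methods give lung. Markers of lung endothelium (Car4, Foxf1, Tmem100, Ednrb, Hpgd) averaged 11.51 on AB-Tie1-39 arrays and 11.48 on IgG arrays. Those of liver sinusoidal endothelium (Stab2, Clec4g, Gata4, Dnase1l3, Oit3) averaged 7.07 on AB-Tie1-39 arrays and 7.14 on IgG arrays. Both lists were chosen after values had been seen, and brightness of different probe sets is no measure of relative abundance. Markers of pericytes and smooth muscle, the usual source of Angpt1, averaged 7.35 on AB-Tie1-39 arrays and 7.32 on IgG arrays, below the median of 7.54 for all probe sets. Lists of other cell types are given by their mean level per array or their unadjusted limma calls, none of which passed after adjustment. Leukocyte markers had 2 of 9 genes lower at an unadjusted limma p under 0.05, against 3.15% of all probe sets in this direction. Fibroblast markers had 0 of 8 at that p and alveolar type 1 markers 0 of 5. Of the erythroid list only 1 gene was measured, and it did not pass. Lymphatic endothelial markers ran from 9.02 to 9.09 on AB-Tie1-39 arrays and from 9.14 to 9.51 on IgG arrays. Of these, 4 of 7 genes were lower at an unadjusted p under 0.05, against 3.15% of all probe sets in this direction. Lyve1 and Flt4 of the same list had higher means, with log2 differences of 0.04 and 0.29. Although EC were sorted as LYVE1-, Lyve1 lay at percentile 99.68 of all probe sets in IgG-treated mice. Platelet markers ran from 8.18 to 8.38 on AB-Tie1-39 arrays and from 8.26 to 8.80 on IgG arrays, which overlap. Of these 8 genes, 6 had lower means, and 4 were lower at an unadjusted p under 0.05, against 3.15% of all probe sets in this direction. Alveolar type 2 markers ran from 8.84 to 9.31 on AB-Tie1-39 arrays and from 8.45 to 9.00 on IgG arrays, which also overlap, with 4 of 8 genes higher at that p, against 2.17% of all probe sets in this direction. Array IgG 4 stood apart from the other IgG arrays, with a platelet mean of 8.26 against 8.61 to 8.80, an alveolar type 2 mean of 9.00 against 8.45 to 8.63 and an endothelial mean of 11.01 against 11.10 to 11.13. The part of these cell mixtures in the values below was not tested. In such bulk samples fewer cells of a type and less RNA per cell cannot be told apart.

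No difference between mice given AB-Tie1-39 and mice given IgG passed the test for any of the 6 transcripts. Each gene was compared in a limma fit of all 22202 probe sets with Benjamini-Hochberg adjustment over all of them. Of the 6 members 0 passed an unadjusted p under 0.05, against 5.32% of all probe sets, and 0 had groups without overlap, against 3.17%. By limma 1181 of the 22202 probe sets passed unadjusted and none (0%) after adjustment, the smallest adjusted p being 0.344. The exact Mann-Whitney test gave 703 unadjusted, which with 4 arrays a group are the probe sets without overlap. Its 0 adjusted calls add little, because its smallest possible p of 0.029 leaves little room to pass adjustment. Means were higher after AB-Tie1-39 for 2 members and lower for 4, and their median log2 difference was -0.068, against -0.0044 over all probe sets. The widest fold change that any 95% confidence interval of a member allows was 1.27-fold, on the lower side for Angpt2.

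**Figure D2:**
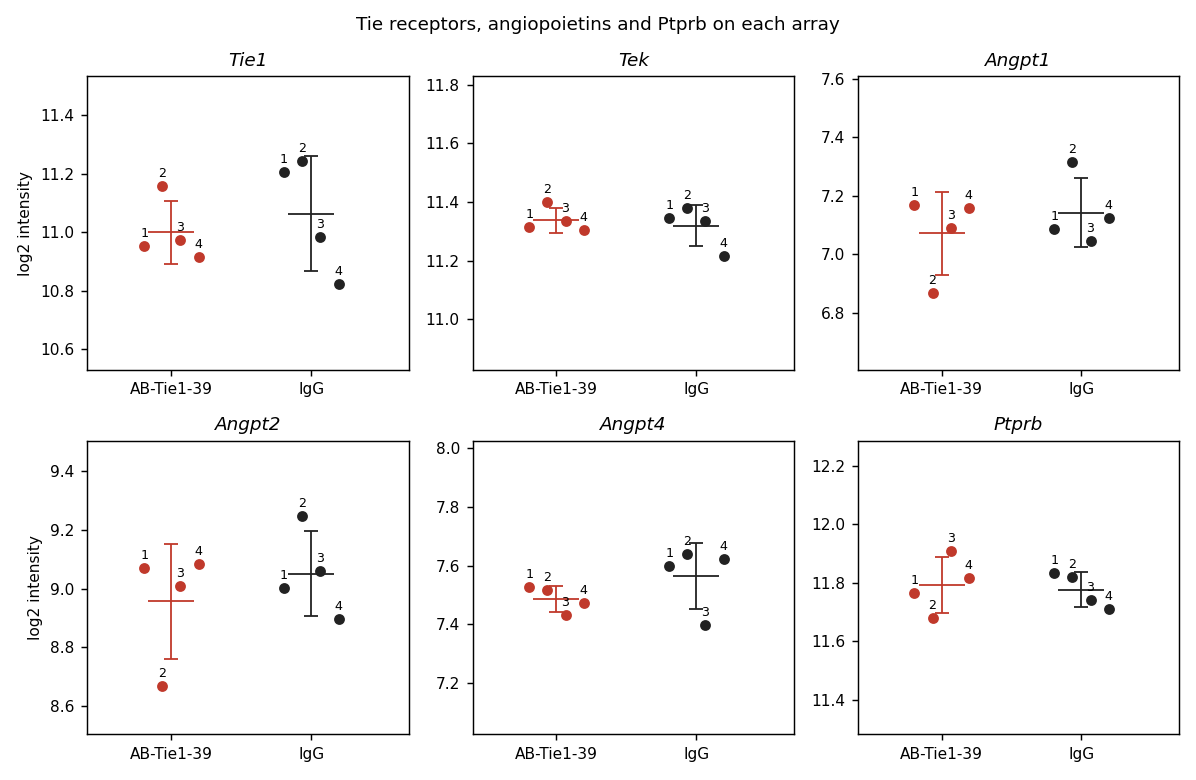
Log2 intensity of each gene on the 4 AB-Tie1-39 arrays and the 4 IgG arrays, numbered by replicate, with the group mean and SD. The groups overlap in every panel, and AB-Tie1-39 2 is the lowest of the 8 arrays for Angpt1, Angpt2 and Ptprb.

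Tie1, the target of the antibody, kept a level within the range of the controls. Its log2 intensities were 10.95, 11.16, 10.97 and 10.91 on AB-Tie1-39 arrays 1 to 4, against 11.21, 11.24, 10.98 and 10.82 on IgG arrays 1 to 4. All 4 AB-Tie1-39 values lay inside the span of the IgG values, whose ends were set by IgG 2 and IgG 4. The means were 11.00 ± 0.11 on AB-Tie1-39 arrays and 11.06 ± 0.20 on IgG arrays (SD, n = 4 each), and the difference was -0.065 (standard error 0.10, 95% interval -0.30 to 0.17, limma adjusted p = 0.987). The exact two-sided permutation test over the 70 arrangements of the arrays gave p = 0.629, where the smallest possible is 0.029. As a fold change the interval runs from 0.814 to 1.12. Leaving out 1 array moved the difference to between -0.14 (without IgG 4) and -0.0054 (without IgG 2). An antibody that blocks the protein need not alter the transcript, so these values are no check of the treatment.

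The arrays fall into 2 sets by the spike-in controls added at hybridization, a technical measure, with 2 arrays of each treatment in each set. These controls measured 10.40 to 10.51 on AB-Tie1-39 3 and 4 and IgG 1 and 2, and 10.79 to 11.05 on AB-Tie1-39 1 and 2 and IgG 3 and 4. Within the second set they were lower on AB-Tie1-39 1 and 2 (10.88 and 10.79) than on IgG 3 and 4 (11.04 and 11.05). For Tie1 the log2 difference was -0.28 within the first set (limma unadjusted p = 0.0227, adjusted p = 0.689) and 0.15 within the second (unadjusted p = 0.301 with limma). With the set as a block the difference was -0.065 as before, since a balanced block changes only its error. Whether the 2 sets differ from each other in this was not tested, and the within-set differences of the other members ran from -0.17 for Angpt4 in the first to 0.082 for Tek in the second.

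Tek, which encodes Tie2, was among the steadiest genes on the arrays. It had 11.31, 11.40, 11.33 and 11.30 on the AB-Tie1-39 arrays and 11.34, 11.38, 11.33 and 11.22 on the IgG arrays. The lowest value was that of IgG 4 and the highest that of AB-Tie1-39 2. The AB-Tie1-39 mean was 11.34 ± 0.04 and the IgG mean 11.32 ± 0.07 (SD, n = 4 each). The log2 difference was 0.020 (standard error 0.07, 95% interval -0.13 to 0.17), with a limma adjusted p of 0.996 and an exact permutation p of 0.743. Its residual SD lay at percentile 5.16 of all probe sets, against 61.1 for Tie1. Whether the 2 transcripts differ in how far mice vary was not tested. Leaving out IgG 4 or AB-Tie1-39 2 turned the sign of this small difference, to -0.014 and -0.00063.

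Angpt1, the activating ligand, had 7.17, 6.87, 7.09 and 7.16 on the AB-Tie1-39 arrays, against 7.09, 7.32, 7.05 and 7.12 on the IgG arrays. The extremes, AB-Tie1-39 2 and IgG 2, lay apart from 6 arrays between 7.05 and 7.17. The AB-Tie1-39 mean of 7.07 ± 0.14 and the IgG mean of 7.14 ± 0.12 (SD, n = 4 each) differed by -0.071 (standard error 0.09, limma adjusted p = 0.983), and by -0.0036 without AB-Tie1-39 2.

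Angpt2, the ligand that EC make and store, had 9.07, 8.67, 9.01 and 9.08 on the AB-Tie1-39 arrays, against 9.00, 9.25, 9.06 and 8.90 on the IgG arrays. Again AB-Tie1-39 2 was lowest and IgG 2 highest, and the other 6 arrays lay between 8.90 and 9.08. The AB-Tie1-39 mean of 8.96 ± 0.20 and the IgG mean of 9.05 ± 0.15 (SD, n = 4 each) gave a log2 difference of -0.094 (standard error 0.11, 95% interval -0.34 to 0.15), with a limma adjusted p of 0.978 and an exact permutation p of 0.6. This was the largest difference in size among the 6 genes, and without AB-Tie1-39 2 it was 0.0027.

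Angpt4 had 7.53, 7.52, 7.43 and 7.47 on the AB-Tie1-39 arrays, against 7.60, 7.64, 7.40 and 7.62 on the IgG arrays. Of the IgG arrays 3 were above every AB-Tie1-39 array, and IgG 3 was below all of them. Means were 7.49 ± 0.04 on AB-Tie1-39 arrays and 7.56 ± 0.11 on IgG arrays (SD, n = 4 each), and the difference was -0.077 (standard error 0.08, limma adjusted p = 0.977, exact permutation p = 0.257). Without IgG 3 it was -0.13, with a limma adjusted p of 0.976.

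Ptprb, the phosphatase of Tie2 and VE-cadherin, had 11.76, 11.68, 11.91 and 11.82 on the AB-Tie1-39 arrays, against 11.83, 11.82, 11.74 and 11.71 on the IgG arrays. The AB-Tie1-39 arrays held both the lowest and the highest value, those of replicates 2 and 3. With an AB-Tie1-39 mean of 11.79 ± 0.10 and an IgG mean of 11.78 ± 0.06 (SD, n = 4 each), the log2 difference was 0.016 (standard error 0.07, 95% interval -0.15 to 0.18, limma adjusted p = 0.996, exact permutation p = 0.8). Leaving out IgG 4 or AB-Tie1-39 3 turned its sign, to -0.0061 and -0.023.

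**Figure D3:**
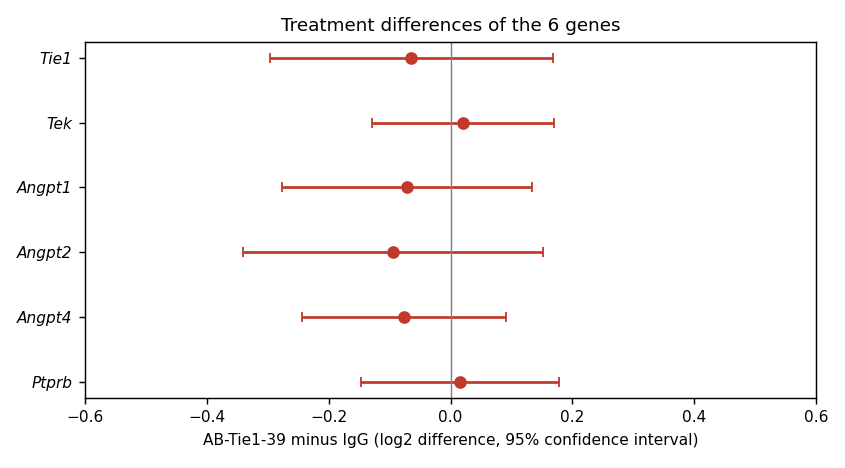
Difference in log2 intensity, AB-Tie1-39 minus IgG, for the 6 genes with 95% confidence intervals from limma. Every interval includes 0, and the widest, that of Angpt2, runs from -0.34 to 0.15.

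Differences taken within each array show whether members moved unequally, free of any brightness shared by an array, although their size has no meaning across probe sets. Tie1 minus Tek was -0.36, -0.24, -0.36 and -0.39 on the AB-Tie1-39 arrays, against -0.14, -0.14, -0.35 and -0.39 on the IgG arrays. The groups overlapped, and the means were -0.34 ± 0.07 on AB-Tie1-39 arrays and -0.25 ± 0.14 on IgG arrays (SD, n = 4 each), a difference of -0.08. Angpt2 minus Angpt1 was 1.90, 1.80, 1.92 and 1.92 on the AB-Tie1-39 arrays, against 1.92, 1.93, 2.01 and 1.77 on the IgG arrays, a mean difference of -0.02. Here IgG 4 and IgG 3 held the lowest and the highest value. Ptprb minus Tek and Angpt2 minus Tek also overlapped between the groups, with mean differences of -0.0043 and -0.11.

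Between single mice the members varied in a partly shared manner. Of 15 pairs, Tie1 and Tek had a Pearson r of 0.838 over the 8 arrays (exact permutation p = 0.00422, 0.0632 adjusted over the pairs) and a Spearman rho of 0.929 (exact permutation p = 0.00223, adjusted 0.0335). The r was 0.924 with group means subtracted and 0.832 with the means of the 2 hybridization sets subtracted, each of which holds too few arrays for an r of its own. Without IgG 1 and IgG 2, the arrays farthest from the median of Tie1, it was 0.959. Angpt1 and Angpt2 had an r of 0.903 (exact permutation p = 0.0111, adjusted 0.0835) and a rho of 0.762 (exact permutation p = 0.0368, adjusted 0.276). This relation rests on AB-Tie1-39 2 and IgG 2, without which r was 0.152. The other 13 pairs had r between -0.24 and 0.58. All pairs share the arrays' amplification and normalization, and Tie1 and Tek were both lowest on IgG 4, the array with the lowest endothelial mean. The part of endothelial content in their relation was not tested, and without IgG 4 their r was 0.802. With group means subtracted, some bright named genes exceeded the 0.924 of this pair. Zfp36l1 reached 0.983 with Tie1, and Ddah2 reached 0.985 with Tek.

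**Figure D4:**
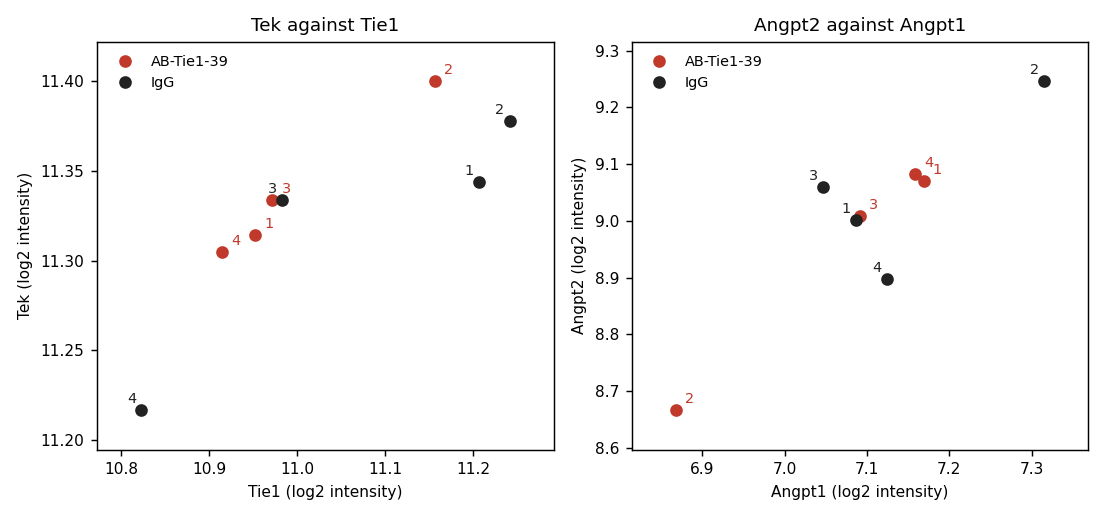
Log2 intensities of Tek against Tie1 and of Angpt2 against Angpt1 on the 8 arrays, numbered by replicate and colored by group. Tie1 and Tek follow each other over the whole range (r = 0.838), whereas Angpt1 and Angpt2 follow each other through AB-Tie1-39 2 and IgG 2.

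Around the receptors, 7 lists held adaptors, shedding enzymes, integrins, phosphatase substrates, storage proteins, transcription factors and relatives of the angiopoietins. Of their 76 gene symbols, 68 were measured. Means were higher in AB-Tie1-39-treated mice for 30 and lower for 38, with a median log2 difference of -0.023. Over all 22202 probe sets they were higher for 10713 and lower for 11489, against which the counts of each list below can be set. At an unadjusted limma p under 0.05 there were 4, or 5.88%, against 5.32% of all probe sets, and 3, or 4.41%, had groups without overlap, against 3.17%. None passed after adjustment over all probe sets (smallest adjusted p with limma 0.897). These shares lie near those of all genes.

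Of the adaptors and kinases that relay the Tie2 signal, 12 of 17 had higher means and 0 passed an unadjusted p under 0.05. Nck1, an adaptor that binds phosphorylated receptors, had 10.10, 10.11, 10.18 and 10.25 on the AB-Tie1-39 arrays, against 10.04, 10.05, 10.08 and 10.02 on the IgG arrays. The groups did not overlap, as for 1.38% of all probe sets in the higher direction, and the difference was 0.11 (standard error 0.07, limma adjusted p = 0.956). Pik3cb, a catalytic subunit of PI3 kinase, had a log2 difference of 0.15 (standard error 0.09), Akt2 one of 0.11 (standard error 0.09) and Rasa1, a Ras GTPase activator, one of 0.20 (standard error 0.15), with overlapping groups in each.

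Among the ligands reported for Tie1 and the proteases that shed receptor ectodomains, 3 of 8 had higher and 5 lower means, with 0 at an unadjusted p under 0.05. Adam17, a sheddase of many membrane proteins, had a log2 difference of -0.24 (standard error 0.14), Timp3, an inhibitor of such enzymes, one of -0.19 (standard error 0.11), the membrane protease Mmp14 one of -0.10 (standard error 0.10) and Adam10 one of -0.07 (standard error 0.08). Their limma adjusted p-values lay between 0.956 and 0.977.

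Of 5 integrin genes whose products bind angiopoietins, 4 had lower means and 1, Itgb3, passed an unadjusted p under 0.05, against 3.15% of all probe sets in the lower direction. Itgb3 had 7.63, 7.82, 7.54 and 7.64 on the AB-Tie1-39 arrays, against 8.11, 8.35, 8.30 and 7.57 on the IgG arrays. IgG 4 lay with the AB-Tie1-39 arrays and the other 3 IgG arrays above all of them. The difference was -0.42 (standard error 0.16, unadjusted p = 0.0218, adjusted p = 0.897 with limma). Integrin beta 3 is also a major platelet receptor, and platelet markers averaged 8.28 on AB-Tie1-39 arrays and 8.62 on IgG arrays with 4 of 8 lower at an unadjusted p under 0.05. Their part in the Itgb3 value was not tested. Itgav, Itgb1 and Itga5 had log2 differences of -0.14, -0.03 and 0.07.

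Of 8 substrates and relatives of VE-PTP, 6 had higher means and 2 of these passed an unadjusted p under 0.05, against 2.17% of all probe sets in this direction. Fgd5, an endothelial exchange factor for Cdc42 that interacts with VE-PTP, had 11.33, 11.39, 11.42 and 11.33 on the AB-Tie1-39 arrays, against 11.18, 11.31, 11.16 and 10.92 on the IgG arrays. All 4 AB-Tie1-39 values were above the IgG values, of which IgG 4 was lowest. The difference was 0.23 (standard error 0.09, unadjusted p = 0.0274, adjusted p = 0.923 with limma). The second was Ptpro, a related phosphatase, with a log2 difference of 0.19 at a level of 6.44, near the olfactory receptor median. Cdh5 and Kdr (VEGFR2), which VE-PTP also acts on, had differences of 0.07 and 0.09, and the phosphatase Ptprj one of -0.07.

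Genes of the Weibel-Palade bodies, which store and release Angpt2, had lower means in 8 of 10 cases, and 1 of these passed an unadjusted p under 0.05, against 3.15% of all probe sets in this direction. Rab3a, a GTPase of regulated exocytosis, had 9.62, 9.60, 9.11 and 9.24 on the AB-Tie1-39 arrays, against 9.74, 9.45, 9.80 and 9.76 on the IgG arrays, a difference of -0.29 (standard error 0.13, unadjusted p = 0.0483, adjusted p = 0.932 with limma). The groups overlapped through IgG 2. Cd63, a membrane protein of these bodies and of platelet granules, had a difference of -0.22 (standard error 0.12), while Vamp8 and Exoc2, of the fusion machinery, had differences of 0.09 and 0.15.

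Of 15 transcription factors tied to the expression of Tie and angiopoietin genes, 5 had higher and 10 lower means, with 0 at an unadjusted p under 0.05. Foxo1, a forkhead factor held in check by Akt downstream of Tie2 and an activator of Angpt2 transcription, had 9.79, 9.86, 9.75 and 9.72 on the AB-Tie1-39 arrays, against 9.88, 9.94, 9.89 and 9.89 on the IgG arrays. The groups did not overlap, as for 1.78% of all probe sets in this direction, and the difference was -0.12 (standard error 0.06, limma adjusted p = 0.955). Elf1, an ETS factor, had a difference of -0.15 (standard error 0.09), and the hypoxia-inducible factors Hif1a and Epas1 had 0.11 (standard error 0.08) and 0.09 (standard error 0.07).

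The angiopoietin-like genes, named for their likeness to the angiopoietins, had lower means in 4 of 5 cases and 0 at an unadjusted p under 0.05. Angptl6 had a log2 difference of -0.16 (standard error 0.08), Angptl8 one of -0.03 (standard error 0.08) and Angptl4, an inhibitor of lipoprotein lipase, one of 0.16 (standard error 0.14).

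**Figure D5:**
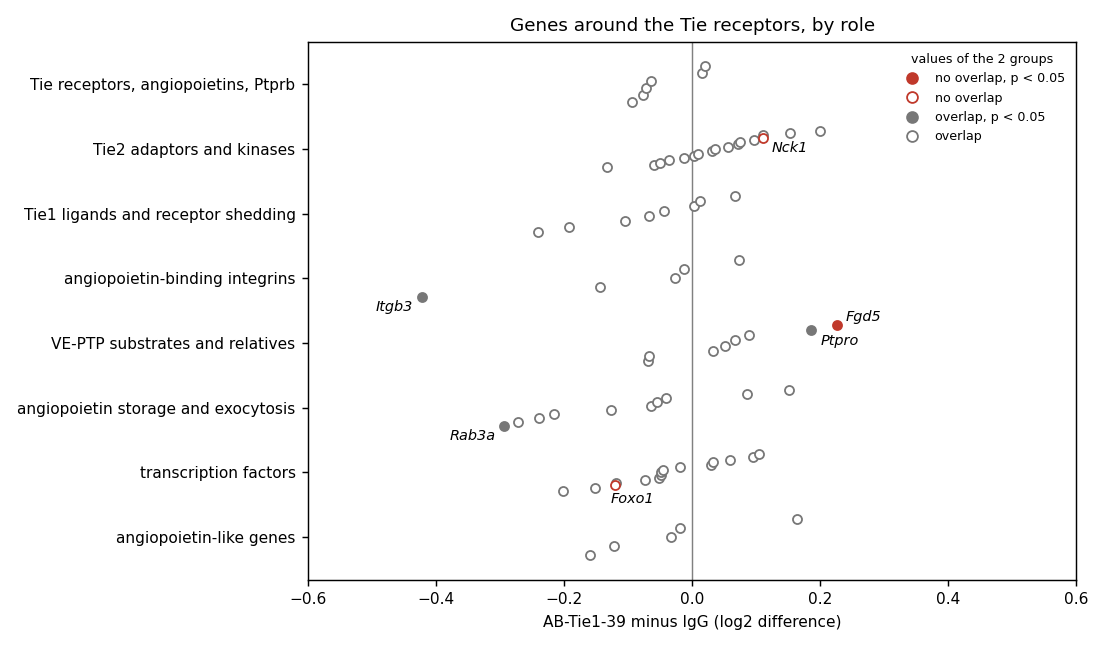
Difference in log2 intensity, AB-Tie1-39 minus IgG, for the 6 members and the 68 measured genes around them, 1 point per gene, grouped by role. Red points have no overlap between the groups, and filled points have an unadjusted limma p under 0.05. Points lie on both sides of 0 in every group, with Itgb3 farthest to the left.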

How the data were processed

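RNA of lung EC sorted from 4 AB-Tie1-39-treated and 4 IgG-treated mice was measured on 1-colour arrays. The authors deposited linear intensity values that had been normalized across the arrays by a method not given in the sources used here. Log2 of the intensity was fitted with limma 3.58.1 (R 4.3.3) as AB-Tie1-39 minus IgG, with eBayes variances that have no trend and Benjamini-Hochberg adjustment, over 22202 of 29129 probe sets. Left out were 6923 controls and 4 with missing values. Symbols come from the platform annotation, with 19572 probe sets of 1 symbol, 0 of several and 2630 unnamed. The table has 0 columns of other samples. Median intensity per array was 184 to 190, and since arrays give no read depth, their number limits precision. The exact permutation and Mann-Whitney tests of the groups were run in R over the 70 arrangements. Exact permutation p-values of the correlations were computed in Python 3.11.15, with scipy 1.17.1 for ranks and adjustment. The labels call the mice biological replicates. Samples were grouped by title.

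The members, gene lists and tests were chosen with earlier results of these data known. Named genes are the 6 members, per pathway list up to 4 measured genes of the smallest unadjusted p with a level at or above the median, and per member the 3 genes most correlated with it after subtracting group means. Ptpro lies below that level and was named after its value was seen, as were the lists for lung and liver endothelium. Alternatives covered the scaling, dim probe sets, a trended variance, weights of arrays, blocks by replicate number or hybridization controls, exact tests and each array left out. The limma script was tested on simulated data.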

Additional observations from a re-analysis of the deposited data

Results flagged for a closer look

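In the IgG group the Angpt4 value of array IgG 3, 7.40 against 7.60 to 7.64 on the other 3 arrays, lies far from the rest. Its gap is 0.835 of the group's whole range, just past Dixon's 95% critical value for 4 samples. Of 12 groups examined, 2 per gene, it is the only one past that value, which chance passes in about 1 in 20 groups. The lowest Angpt2 value among AB-Tie1-39 arrays, that of AB-Tie1-39 2, reached 0.821.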

How the results depend on the processing

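No member passed an adjusted p under 0.05 with any alternative. The exact tests, with a smallest possible p of 0.029, had little room to pass that adjustment. The members' differences kept their sign under quantile normalization, subtracted array medians and array weights. A trended variance and the hybridization controls as a balanced block change only the error, so the sign could not turn there. Within the arrays of low hybridization controls Tek turned to -0.042, and within those of high controls Tie1 turned to 0.15, Angpt4 to 0.013 and Ptprb to -0.0040. The cause was not tested. Leaving out 1 array gave -0.014 to 0.040 for Tek, -0.15 to 0.0027 for Angpt2 and -0.023 to 0.053 for Ptprb, with 2, 1 and 2 turns of sign, and no turn for Tie1 (-0.14 to -0.0054), Angpt1 (-0.10 to -0.0036) and Angpt4 (-0.13 to -0.052). Over all probe sets, 1181 at an unadjusted limma p under 0.05 became 640 among bright probe sets only, where fewer were tested. By the exact Mann-Whitney test there were 703, the same probe sets as those without overlap. The count without overlap became 371 among bright ones and 1200 to 1527 with 1 array left out, where fewer samples must separate. After adjustment 0 to 18 passed with 1 array left out, 18 of them without IgG 4. The replicate number as a block, also balanced, left the Tie1 difference at -0.065 (limma unadjusted p = 0.479). In that fit 1140 probe sets passed unadjusted and 0 adjusted. The deviations of arrays sharing a number had correlations of -0.050 to 0.0066. No deviation shared by number was thus seen, and whether the mice were matched in another way cannot be told from this. The alternatives for the 2 correlations were chosen after seeing the data, and for Tie1 with Tek r was 0.796 under quantile normalization and 0.802 to 0.894 with 1 array left out. Each gene has 1 probe set, so a mean over probe sets was not run, and Angpt1 and Angpt4 have no value among bright probe sets. With 4 arrays a group, any change within a member's interval remains compatible with its values. For Angpt1 and Angpt4 the dim signal is a further limit.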

Other observations

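The genes whose values followed each member most closely over the 8 arrays, with group means subtracted, were ranked among bright named genes as a description. For Tie1 these were Zfp36l1, an RNA-binding protein that destabilizes messages (r = 0.983), Eif3l, a translation initiation factor subunit (0.983), and Irak3, a brake on Toll-like receptor signaling (0.976). For Tek they were Ddah2 (0.985), of the enzyme family linked to endothelial nitric oxide control, Adsl of purine synthesis (0.983) and the secreted protease Htra1 (0.980). For Angpt2 they were Zfp821 (0.976), Bdp1 (0.962) and Plpp3, a phosphatase of lysophospholipids (0.961), and for Ptprb Rnf114 (0.978), Ninl (0.972) and Tsfm (0.970). For the dimmer ligands they were Krtap16-3 (0.978), Pramel39 (0.976) and Cd47 (0.968) for Angpt1, and Washc1 (0.980), Cacng3 (0.976) and Cpt2 (0.974) for Angpt4. Over so many candidates and 8 arrays high r values come up in any such ranking, and no test was made.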
